A study of Mus musculus with 9 samples.

Results

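The genes of the phagocyte NADPH oxidase, the membrane enzyme that makes superoxide in monocytes and neutrophils, were followed across 3 BM cell populations. The set holds 6 of the 19937 genes measured: *Cybb*, *Cyba*, *Ncf1*, *Ncf4*, *Rac2*, and *Hvcn1*. They were chosen as parts of the enzyme or as the channel that works beside it, with earlier results of these data known. Each was read by 1 probe set that names that gene and no other. Steady-state C57Bl/6 mice aged 8 weeks gave the cells, all of them Ly6Chi CD115+ and sorted after exclusion of cells with lineage markers, Ly6G, or MHCII. R3 pre-DCs were Flt3+CD11c+, R2 monocytes were Flt3+CD11c-, and R1 monocytes were Flt3-CD11c-, with 3 arrays of each. No cell was treated or genetically altered. Replicate numbers 1 to 3 stand for 3 label dates, with 1 array of every population on each. No source used here says whether the arrays came from separate mice. A p-value therefore tells of the scatter among these arrays, some of which may be technical.

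The oxidase rests in separate pieces. Its catalytic subunit gp91phox (*Cybb*) sits with its partner p22phox (*Cyba*) in the membrane as flavocytochrome b558. When a receptor for bacteria, complement, or antibody is engaged, the cytosolic subunits p47phox (*Ncf1*) and p40phox (*Ncf4*) move to the membrane together with the GTPase Rac2, and the assembled enzyme passes electrons from NADPH to oxygen. The voltage-gated proton channel Hvcn1 carries protons that balance the charge moved. Loss of a subunit causes chronic granulomatous disease in humans, and in DCs the enzyme is known for its effect on phagosomal pH and antigen processing.

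Transcripts for the membrane flavocytochrome and for p40phox were lower in R3 pre-DCs than in both monocyte populations, and those for p47phox and Rac2 did not pass the test in any comparison. *Ncf4* in R3 was at 11.6% of its R2 intensity and 12.3% of its R1 intensity, *Cybb* at 42.7% and 35.4%, and *Cyba* at 50.2% and 49.6%. *Hvcn1* was at 53.1% and 59.0%, and only the difference from R2 passed. Between R2 and R1 monocytes none of the 6 genes passed. Of the 6, 4 were called lower in R3 than in R2, where 4.69% of all genes were, and 3 were called lower in R3 than in R1, where 7.02% were. None was called higher, against 4.85% and 6.49% of all genes. In R3 the arrays of 4 members lay wholly below those of R2 and the arrays of 5 wholly below those of R1, as did 12.2% and 12.9% of all genes. The median log2 fold change of the 6 genes was -0.95 for R3 against R2 and -0.89 for R3 against R1, beside -0.01 and -0.02 over all genes. Because the 6 genes were chosen with earlier results of these data known, these shares and medians only describe them. Both comparisons use the same R3 arrays. The populations were measured in bulk, so fewer cells with a transcript and less of it per cell cannot be told apart. Calls rest on limma with Benjamini-Hochberg adjustment over all genes, at an adjusted p under 0.05, and values are log2 intensities.

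**Figure D1:**
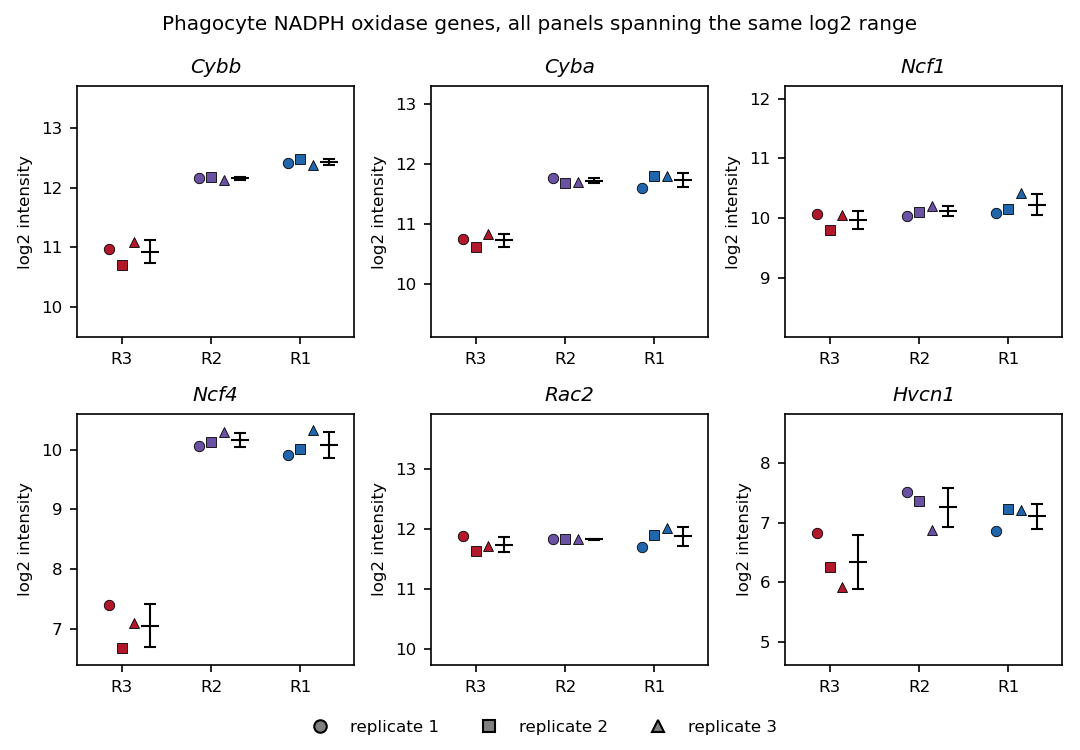
Log2 intensity of the 6 oxidase genes in each array, by population (R3, R2, R1). Points are arrays, shaped by replicate number, and bars give the mean and SD of 3 arrays. All panels span the same log2 range with different limits. *Cybb*, *Cyba*, and *Ncf4* in R3 lie below every R2 and R1 array, and *Ncf1* and *Rac2* in R3 overlap R2.

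The arrays had median log2 intensities from 5.86 to 6.02. The monocyte receptor genes *Csf1r* (10.74 in R3, 10.98 in R2, 11.25 in R1) and *Ccr2* (12.04, 12.13, and 12.21) were present in all 3 populations. With R3 replicate 1 left out, *Csf1r* was called lower in R3 than in R1 (-0.49, limma adjusted p = 0.0163). Against R2, 8 of 10 DC markers were called higher in R3, and the summed linear intensity of the 10 ranged from 13170 to 15187 in R3, 1457 to 1681 in R2, and 832 to 1217 in R1. *Flt3* and *Itgax* (CD11c) are among them and were used to sort the cells. Between R2 and R1, 2 of the 10 were called higher in R2. Of 7 monocyte markers measured, R3 against R2 called 4 lower (*Fcgr3*, *Msr1*, *Adgre1*, *F13a1*) and 1 higher (*Cx3cr1*), with sums from 9099 to 10302 in R3, 15255 to 16477 in R2, and 17704 to 19154 in R1. R3 against R1 called 5 of these 7 lower and none higher. Of 7 primary granule and progenitor markers 5 were called lower in R3 than in R2 (*Mpo*, *Elane*, *Prtn3*, *Ctsg*, *Ms4a3*), and the 7 summed to 1255 to 1567 in R3, 13031 to 17890 in R2, and 7358 to 12051 in R1. Against R1, 5 of the 7 were called lower in R3 and 1 higher. No B cell, T and NK cell, or erythroid marker was called in any of the 3 comparisons, and of 6 resident macrophage markers R3 had 1 called higher against R2 and R1 alike, *Cd163*.

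The R3 arrays differed from each other in neutrophil granule genes. The 11 neutrophil markers summed to 16281, 1606, and 7055 in R3 replicates 1, 2, and 3, against 12665, 10643, and 13086 in R2 and 8971, 9021, and 12103 in R1. *S100a8* and *S100a9* were the brightest of the 11 in every array and made up most of each sum. *S100a8* was at 12.56, 9.35, and 11.44 in R3, 12.54, 12.35, and 12.69 in R2, and 12.16, 12.06, and 12.41 in R1. The sums therefore say little of the granule genes. *Camp* was at 10.79, 6.16, and 8.77 in R3 and at 8.58, 6.70, and 7.85 in R2, and *Ngp* was at 10.73, 6.27, and 9.03 in R3 and at 7.48, 5.85, and 6.51 in R2. R3 replicates 1 and 3 exceeded every R2 and R1 array in both genes. R3 replicate 2 had by far the lowest summed level of the 9 arrays, but not the lowest *Camp* or *Ngp*. R1 replicate 2 was lower in both, at 5.83 for *Camp* and 4.67 for *Ngp*. *Ly6g* lay between 4.21 and 5.03 in all 9 arrays, below the array medians. Of the 11 markers none was called higher and 2 were called lower in R3, *Mmp8* and *Fcnb*, against R2 and against R1. R3 replicate 1 had the highest R3 value of *Ncf1*, *Ncf4*, *Rac2*, and *Hvcn1*, and R3 replicate 3 that of *Cybb* and *Cyba*. R3 replicate 2 had the lowest R3 value of every member except *Hvcn1*. The part of neutrophil transcripts in the member values was not tested. Without R3 replicate 1 the R3 minus R2 log2 fold change was -1.25 for *Cybb*, -1.005 for *Cyba*, -3.27 for *Ncf4*, and -1.16 for *Hvcn1*, as large as with it or larger, and *Hvcn1* was then also called lower in R3 than in R1 (-1.01, limma adjusted p = 0.0171). Without R3 replicate 2 the R3 minus R2 values were -1.12 for *Cybb*, -0.935 for *Cyba*, -2.91 for *Ncf4*, and -0.87 for *Hvcn1*, and *Hvcn1* was then not called (limma adjusted p = 0.122). Leaving out R3 replicate 3, also high in *Camp* and *Ngp*, gave -1.31 for *Cybb*, -1.05 for *Cyba*, and -3.13 for *Ncf4*. *Hvcn1* then shrank to -0.70 against R2 (limma adjusted p = 0.123) and -0.55 against R1 (limma adjusted p = 0.193), neither called.

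**Figure D2:**
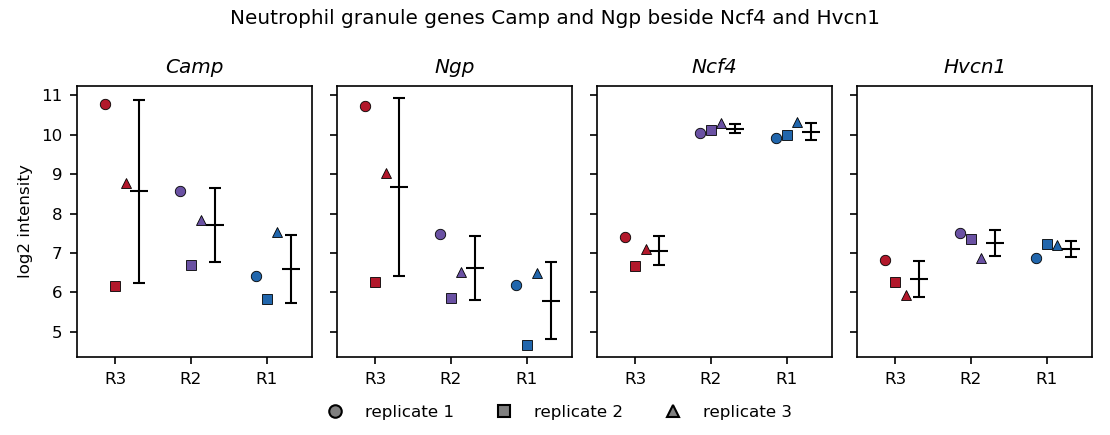
Log2 intensity per array of the neutrophil granule genes *Camp* and *Ngp*, beside *Ncf4* and *Hvcn1*, in R3, R2, and R1. Points are arrays, shaped by replicate number, and bars give the mean and SD of 3 arrays. *Camp* spans 6.16 to 10.79 within R3, and the *Ncf4* arrays of R3 stay at or below 7.39.

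*Cybb* encodes the subunit that carries the electrons. Its log2 intensity was 10.97, 10.71, and 11.10 in R3, against 12.16, 12.18, and 12.13 in R2 and 12.42, 12.48, and 12.38 in R1. Every R3 array lay below every R2 array, and every R2 array below every R1 array. The means were 10.93 ± 0.20 in R3, 12.16 ± 0.03 in R2, and 12.43 ± 0.06 in R1 (SD, n = 3 each). R3 was lower than R2 by a log2 fold change of -1.23 (95% interval -1.44 to -1.01, limma adjusted p = 4.9e-05) and lower than R1 by -1.50 (-1.71 to -1.28, limma adjusted p = 1.04e-05). On the 3 dates the R3 minus R2 difference was -1.19, -1.46, and -1.03. The R2 minus R1 difference was -0.27 (-0.49 to -0.05), with -0.26, -0.31, and -0.25 on the 3 dates, and did not pass (limma adjusted p = 0.333). It was the only member with separate R2 and R1 arrays, an arrangement in this direction that 7.99% of all genes had.

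*Cyba* encodes p22phox, which steadies the catalytic subunit and docks p47phox. Its log2 intensity was 10.74, 10.61, and 10.83 in R3, against 11.77, 11.69, and 11.70 in R2 and 11.61, 11.80, and 11.80 in R1. The R3 arrays lay below all others, and those of R2 and R1 overlapped. The means were 10.73 ± 0.11, 11.72 ± 0.04, and 11.74 ± 0.11 in R3, R2, and R1 (SD, n = 3 each). The log2 fold change was -0.995 for R3 against R2 (95% interval -1.18 to -0.81, limma adjusted p = 7.44e-05) and -1.01 for R3 against R1 (-1.20 to -0.82, limma adjusted p = 5.09e-05). For R2 against R1 it was -0.02 (-0.20 to 0.17, limma adjusted p = 0.971), an interval that leaves out a difference of the size seen in R3.

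Promoters of *Cybb*, *Cyba*, and *Ncf1* were matched, 3 of the 6 members, in the RefSeq table of GRCm38.p6. That table held none for *Ncf4*, *Rac2*, or *Hvcn1*, and every matched promoter is shown. Each runs from 250 bases before to 50 bases after the annotated start, read along the gene, and all 3 genes lie on the minus strand, at chrX:9469275-9469574, chr8:122432891-122433190, and chr5:134229576-134229875. Capitals mark matches on either strand to GAGGAA (PU.1 and Ets type), to GGAA, any 2 bases, and GAAA (Ets and IRF composite), to GAAA, any 2 bases, and GAAA (IRF type), or to TTGC, any 2 bases, and AA (C/EBP type).
*Cybb*: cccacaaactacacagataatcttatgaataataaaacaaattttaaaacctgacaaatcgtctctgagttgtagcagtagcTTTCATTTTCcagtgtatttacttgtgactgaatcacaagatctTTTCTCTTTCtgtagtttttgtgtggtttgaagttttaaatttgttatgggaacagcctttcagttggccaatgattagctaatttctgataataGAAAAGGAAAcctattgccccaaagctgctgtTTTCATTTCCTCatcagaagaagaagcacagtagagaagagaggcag
*Cyba*: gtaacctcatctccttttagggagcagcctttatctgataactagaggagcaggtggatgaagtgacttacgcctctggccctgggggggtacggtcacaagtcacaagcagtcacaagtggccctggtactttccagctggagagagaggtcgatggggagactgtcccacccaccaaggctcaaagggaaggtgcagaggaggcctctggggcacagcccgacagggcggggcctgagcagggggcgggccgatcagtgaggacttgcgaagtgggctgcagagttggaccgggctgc
*Ncf1*: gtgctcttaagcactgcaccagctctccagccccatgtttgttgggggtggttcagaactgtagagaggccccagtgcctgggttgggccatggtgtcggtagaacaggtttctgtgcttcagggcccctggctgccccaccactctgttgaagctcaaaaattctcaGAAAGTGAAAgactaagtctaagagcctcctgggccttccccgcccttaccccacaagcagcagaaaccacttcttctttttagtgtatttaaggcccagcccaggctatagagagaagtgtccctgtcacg
The *Cybb* window held 3 IRF-type matches, 1 of them at bases -29 to -20, and a composite match at bases 4 to 13 that overlaps a GAGGAA match at bases 10 to 15, both on the opposite strand. *Ncf1* held 1 IRF-type match at bases -82 to -73, and *Cyba* held none of the 4 motifs. Among 32851 promoters of this length, 3.44% held the IRF type, 2.72% the composite, 28.3% GAGGAA, and 10.8% the C/EBP type. The GC content was 35.3% for *Cybb*, 60.7% for *Cyba*, and 54.0% for *Ncf1*. A match gives letters only, not a bound site.

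*Ncf4* encodes p40phox, which binds a phosphoinositide of the phagosome membrane and holds the enzyme active there. Its log2 intensity was 7.39, 6.68, and 7.10 in R3, against 10.06, 10.13, and 10.30 in R2 and 9.91, 10.00, and 10.32 in R1. The highest R3 array was far below the lowest monocyte array, and R2 and R1 overlapped. The means were 7.06 ± 0.36 in R3, 10.16 ± 0.12 in R2, and 10.08 ± 0.21 in R1 (SD, n = 3 each), or 136, 1148, and 1090 on the linear scale. The log2 fold change was -3.10 for R3 against R2 (95% interval -3.50 to -2.70, limma adjusted p = 7.31e-06), which ranks 29 from the lowest among all 19937 genes. It was -3.02 for R3 against R1 (-3.42 to -2.62, limma adjusted p = 6.09e-06), with -2.52, -3.32, and -3.22 on the 3 dates, and 0.08 for R2 against R1 (-0.32 to 0.48, limma adjusted p = 0.922).

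*Ncf1* encodes p47phox, the organizer whose phosphorylation starts assembly. Its log2 intensity was 10.08, 9.80, and 10.05 in R3, against 10.04, 10.11, and 10.21 in R2 and 10.09, 10.16, and 10.42 in R1. R3 overlapped R2 and lay just below R1. The means were 9.97 ± 0.15, 10.12 ± 0.08, and 10.22 ± 0.17 in R3, R2, and R1 (SD, n = 3 each). The difference was -0.14 for R3 against R2 (95% interval -0.39 to 0.10, limma adjusted p = 0.593) and -0.11 for R2 against R1 (-0.35 to 0.14, limma adjusted p = 0.814). For R3 against R1 it was -0.25 (-0.496 to -0.0017, limma unadjusted p = 0.0487, adjusted p = 0.204). That interval lies wholly on the lower side, by a narrow margin, though the difference was not called.

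*Rac2* encodes the GTPase that switches the assembled oxidase on. It was at 11.88, 11.63, and 11.71 in R3, against 11.84, 11.82, and 11.82 in R2 and 11.70, 11.90, and 12.02 in R1, and the 3 populations overlapped. The means were 11.74 ± 0.13, 11.83 ± 0.01, and 11.87 ± 0.16 in R3, R2, and R1 (SD, n = 3 each), and 2 R2 arrays held the same deposited value. The difference was -0.09 for R3 against R2 (95% interval -0.31 to 0.13, limma adjusted p = 0.744) and -0.13 for R3 against R1 (-0.35 to 0.08, limma adjusted p = 0.473). Both intervals leave out a fall of the size seen for *Cybb* or *Cyba*. R2 differed from R1 by -0.05 (-0.26 to 0.17, limma adjusted p = 0.918).

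*Hvcn1* encodes the proton channel, and among the members its R3 arrays scattered most. It was at 6.83, 6.26, and 5.92 in R3, against 7.51, 7.36, and 6.88 in R2 and 6.86, 7.23, and 7.21 in R1. The R3 arrays lay below the others, the highest of them by a small margin, and some were near the array median. The means were 6.34 ± 0.46 in R3, 7.25 ± 0.33 in R2, and 7.10 ± 0.21 in R1 (SD, n = 3 each). R3 was lower than R2 by -0.91 (95% interval -1.45 to -0.38, limma adjusted p = 0.0424). The R3 minus R1 difference was -0.76 (-1.30 to -0.23, limma adjusted p = 0.069), with -0.03, -0.97, and -1.29 on the 3 dates. The call against R2 was lost without R3 replicate 2 or 3, R2 replicate 1 or 2, or any 1 of the R1 arrays (limma adjusted p = 0.0502 to 0.16). R2 differed from R1 by 0.15 (-0.39 to 0.69, limma adjusted p = 0.89).

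**Figure D3:**
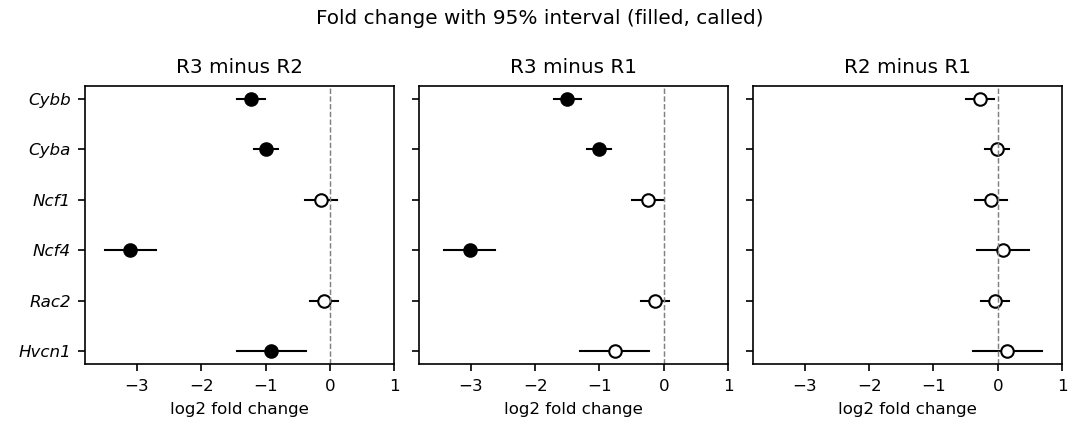
Log2 fold change with its 95% interval from limma for each oxidase gene, for R3 minus R2, R3 minus R1, and R2 minus R1. Filled points are called at an adjusted p under 0.05. *Ncf4* is near -3 in both R3 comparisons, and no point is filled for R2 minus R1.

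No member was called between R2 and R1, where 0.391% of all genes were called in either direction. At an unadjusted p under 0.05 limma gave 1 member, *Cybb*, and the unmoderated test that the methods name gave 1 unadjusted and 0 adjusted. The median log2 fold change of the 6 genes was -0.03, beside -0.02 over all genes. All 6 members had a larger SD in R3 than in R2, as did 57% of all genes, and 3 of 6 had a larger SD in R3 than in R1, as did 41.1%. Over the 9 arrays, as a description in which the populations set most of the spread, *Cyba* and *Ncf4* had a Pearson r of 0.99, *Cybb* and *Cyba* 0.98, and *Cybb* and *Rac2* 0.52. The genes whose log2 intensity was most like that of *Cybb* were *Cers6*, *Mtus1*, and *Atp6v1b2* (r = 0.998, 0.997, and 0.996, n = 9 arrays), and 312 genes had an r above 0.95 with it. For *Cyba* they were *Hp*, *Fcgr3*, and *Kmt5a* (0.995 each), for *Ncf4* *Lbp*, *Svip*, and *Mfsd14b* (0.996, 0.995, and 0.995), and for *Hvcn1* *Zfand4*, *Kif13a*, and *Abcd3* (0.97, 0.968, and 0.962).

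Other genes of the oxidase family stayed outside the calls. Of 12 measured, which include subunits of the non-phagocyte oxidases and the maturation factor gene *Cybc1*, none was called in any comparison, and none was at an unadjusted p under 0.05 in limma (the unmoderated test of the methods gave 1 unadjusted for R3 against R2 and 0 in the other comparisons). Their median log2 fold change was -0.04 for R3 against R2 and -0.03 for R3 against R1. Those of largest size against R2 were *Nox1* (-0.11) and *Noxo1* (-0.10), and against R1 *Noxa1* (-0.16) and *Rap1a* (-0.11). *Rac1*, the relative of Rac2 found in most cells, averaged 11.59 in R3, 11.62 in R2, and 11.69 in R1.

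Of 9 genes measured in a list of receptors tied to the oxidative burst, 6 were called lower in R3 than in R2. Against R1, 8 were called lower, and none was called higher in either comparison. The median log2 fold change of the list was -0.96 and -1.55. The list includes *Fcgr2b*, which encodes an inhibitory antibody receptor, so its counts are not of activating receptors alone. Without R3 replicate 1, *Fcgr2b* differed by -0.66 from R2 and by -0.79 from R1. *Fcgr3*, an activating antibody receptor that also stands in the monocyte list, averaged 7.18 ± 0.21 in R3, 10.63 ± 0.05 in R2, and 10.82 ± 0.22 in R1 (SD, n = 3 each), with a log2 fold change of -3.45 against R2 (limma adjusted p = 1.5e-06). *Clec7a*, the β-glucan receptor Dectin-1, differed by -1.60 (limma adjusted p = 1.17e-05), and *Ptafr*, the receptor for platelet-activating factor, by -1.49 (limma adjusted p = 0.00385). *Fcgr1*, the high-affinity IgG receptor, differed by -1.57 (limma adjusted p = 0.0261), a call lost without R3 replicate 1 or 2 or R2 replicate 1 or 3 (adjusted p = 0.0724 to 0.113). *Itgam*, the α chain of complement receptor 3, averaged 9.45 ± 0.16 in R3, 10.42 ± 0.06 in R2, and 10.99 ± 0.08 in R1 (SD, n = 3 each). It was the 1 gene of the list called lower in R2 than in R1 (-0.58, limma adjusted p = 0.0459), where 0.181% of all genes were, and 15 of 21 alternatives lost that call, the fit with date as a block among them. *Fpr1* and *Fpr2* were not used here.

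Among 19 genes that signal to assembly, R3 against R2 called 5 lower and 1 higher, and R3 against R1 called 5 lower and none higher. With any 1 array left out, 4 to 5 and 3 to 6 were called lower, and with 1 date left out 1 to 3 and 3. Their median was -0.09 and -0.13. *Pla2g4a*, a phospholipase that frees arachidonic acid, averaged 6.66 ± 0.60 in R3, 8.39 ± 0.12 in R2, and 8.43 ± 0.23 in R1 (SD, n = 3 each), a fold change of -1.73 against R2 (limma adjusted p = 0.00254). The Src-family kinase gene *Fgr* differed by -1.05 and the protein kinase C gene *Prkcb* by -0.86. *Vav3*, an exchange factor for Rac, differed by -0.60 from R2 and by -0.43 from R1, and the call against R1 was lost without R3 replicate 1 or 3 (limma adjusted p = 0.052 to 0.0573). *Prex1*, another Rac exchange factor, was the 1 gene called higher against R2 (0.45, limma adjusted p = 0.0152), a call lost without R2 replicate 2 or 3 (adjusted p = 0.0545 to 0.0675).

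**Figure D4:**
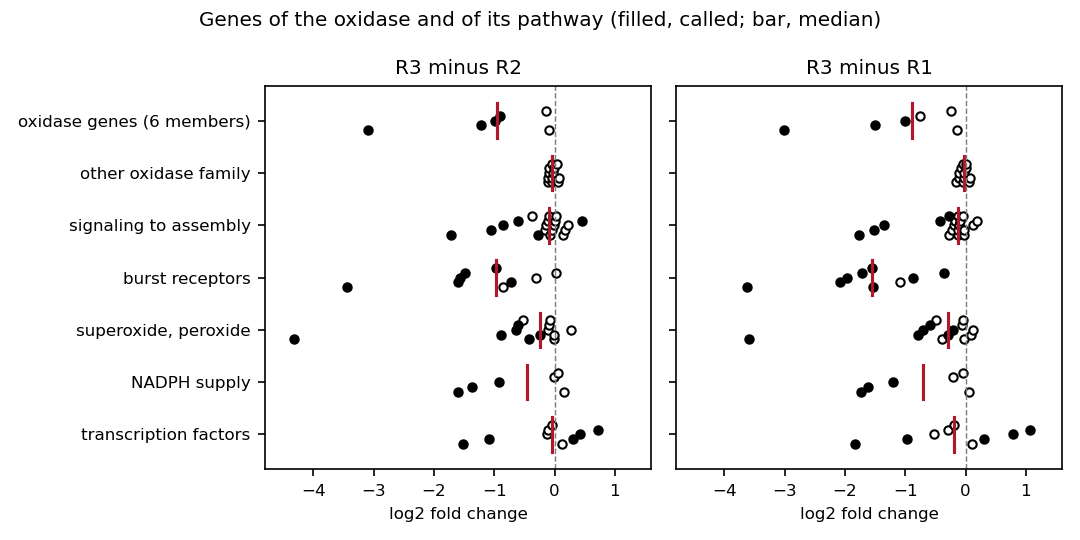
Log2 fold change of each gene of the oxidase and of 6 pathway lists, for R3 minus R2 and R3 minus R1. Each point is a gene, filled where called at a limma adjusted p under 0.05, and the red bar is the median of the list. The burst receptors have medians of -0.96 and -1.55, and all points of the other oxidase family genes are open.

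NADPH, the electron donor, comes from a few dehydrogenases. Of 6 measured genes listed for its supply, 3 were called lower in R3 against both R2 and R1. The list also holds *Tkt* and *Taldo1*, whose enzymes are not dehydrogenases, and neither was called. *Pgd* of the pentose phosphate pathway averaged 9.56 ± 0.08 in R3, 11.16 ± 0.06 in R2, and 11.30 ± 0.26 in R1 (SD, n = 3 each), and differed by -1.60 from R2 (limma adjusted p = 3.77e-05). *Idh1* differed by -1.37 and *H6pd* by -0.92. The list's median was -0.46 against R2 and -0.71 against R1, and *G6pdx* was not used here.

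The list for superoxide and peroxide handling had 13 measured genes, among them *Nos2*, which encodes iNOS, a nitric oxide synthase. Of the 13, 6 were called lower and none higher in R3 against R2, and likewise 6 against R1. With any 1 array left out these counts were 4 to 6 and 3 to 8, with 4 and 3 without R3 replicate 1. *Mpo*, the myeloperoxidase of primary granules and a marker in that list too, had the largest difference of the list, averaging 8.01 ± 0.31 in R3, 12.33 ± 0.33 in R2, and 11.61 ± 0.30 in R1 (SD, n = 3 each), or -4.32 against R2 (limma adjusted p = 3.61e-06). *Gpx4*, which reduces lipid peroxides, differed by -0.88 and *Prdx1*, a peroxiredoxin, by -0.64. The median of the list was -0.23 against R2 and -0.29 against R1.

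Of 9 transcription factor genes described at oxidase gene promoters, 3 were called higher and 2 lower in R3, in both comparisons. *Irf8* averaged 11.67 ± 0.14 in R3, 10.95 ± 0.08 in R2, and 10.61 ± 0.14 in R1 (SD, n = 3 each), with 0.72 against R2 (limma adjusted p = 0.00139) and 1.06 against R1. *Runx1* differed by 0.43 and 0.79, and its call against R2 was lost without R3 replicate 1 or R2 replicate 2 or 3 (limma adjusted p = 0.0535 to 0.0682). The third, *Elf1*, differed by 0.31 from R2, a call lost without R3 replicate 2 or 3 or any 1 of the R2 arrays (limma adjusted p = 0.0591 to 0.115). *Cebpb* averaged 7.33 ± 0.14 in R3, 8.85 ± 0.05 in R2, and 9.17 ± 0.16 in R1 (SD, n = 3 each), a difference of -1.52 from R2 (limma adjusted p = 1.59e-05), and *Cebpe*, a granulocyte factor, differed by -1.08. *Spi1*, which encodes PU.1, averaged 11.74 in R3, 11.61 in R2, and 11.64 in R1 and was not called. The list's median was -0.04 against R2 and -0.20 against R1.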

How the data were processed

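RNA (1 ng per sample) was amplified by whole-transcript amplification, labeled with biotin, and hybridized to Affymetrix arrays, and data were analyzed with GenePattern by the authors. The deposited values are intensities on a linear scale, 1 per probe set and array (34760 probe sets, 9 arrays). How they were normalized is not given in these sources. No column of values was left out. Depth does not apply to arrays; 3 arrays per population limit the precision.

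Intensities were log2-transformed. Of the probe sets, 21640 name 1 gene, and the one of highest mean was kept, giving 19937 genes, with no filter on dim probe sets. In 1638 probe sets the 3 arrays of a population held equal values. The 3 populations were fitted in 1 model with limma 3.58.1 (R 4.3.3), with 6 residual degrees of freedom, and calls were made at an adjusted p under 0.05 (Benjamini-Hochberg over all genes). On simulated data with 19937 genes, 200 of them changed, 91%, 88%, and 87% of 2-fold changes were recovered (R3 minus R2, R3 minus R1, R2 minus R1). In the same order 7, 8, and 9 unchanged genes were called. The data themselves gave 1903, 2693, and 78 calls, unlike the 200 simulated, so these rates may not carry over.

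The members, the lists, and the tests were chosen with earlier results of these data known. All members are named, and from each list up to 4 called genes of largest fold change, or the 2 largest where none was called. *Itgam* in R3, *Prex1*, *Elf1*, *Rac1*, *Cybc1*, *Spi1*, and the cell type markers go beyond the rule and were chosen after their values were seen. The replicate numbers pair the arrays by the date in the labels. Arrays of the same date had correlations of their deviations between -0.02 and 0.15, against -0.15 to 0.08 for different dates. Date as a block was an alternative, beside leaving out arrays or dates, other normalizations, and other tests. The list counts without R3 replicate 1 were added after seeing the data.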

Additional observations from a re-analysis of the deposited data

How the results depend on the processing

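In 21 alternatives per value, *Cybb*, *Cyba*, and *Ncf4* stayed called lower in R3 than in R2 and R1. With the replicate block (date), 4, 3, and 0 members were called (R3 minus R2, R3 minus R1, R2 minus R1), as without it, and 1897, 2749, and 23 genes. Leaving out arrays or dates gave 3 to 4, 3 to 4, and 0 members. *Hvcn1* against R2 lost its call in 12 alternatives (adjusted p = 0.0502 to 0.396), and against R1 it gained one in 5. Genes called for R3 against R2 numbered 1903, 757 to 2183 with arrays or dates left out, and 893 with the methods' t-test. For R3 against R1 they numbered 2693, 1117 to 2843, and 658. For R2 against R1 they numbered 78, 0 to 124 with arrays or dates left out, 20 with arrays centred on their medians, 1 with the t-test, 1 with only the 6 arrays compared, 343 with array weights, and 46 with a trend.

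Among uncalled R2 minus R1 differences, leaving out arrays or dates turned the sign for *Cyba* (-0.105 to 0.0323, with 5 above 0), *Ncf4* (-0.0012 to 0.203, 1 below 0), *Rac2* (-0.137 to 0.0303, 2 above 0), and *Hvcn1* (-0.10 to 0.39, 1 below 0). The causes were not tested. The number of arrays limits what these differences can show.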

Other observations

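*Ncf4* and *Rac2* lie on the same chromosome in the RefSeq gene table of GRCm38.p6, with 10 protein-coding genes between them, all of them measured. The pair of oxidase genes differed in R3 minus R2 by -3.10 (*Ncf4*) and -0.09 (*Rac2*). Of the 10 genes between them only *Csf2rb*, the common β chain of the GM-CSF, IL-3, and IL-5 receptors, was called, lower in R3 than in R2 by -0.70 (limma adjusted p = 0.019) and than in R1 by -0.85 (limma adjusted p = 0.00558). Over all genes, 4.69% were called lower and 4.85% higher against R2, and 7.02% and 6.49% against R1. The other 9 genes between *Ncf4* and *Rac2* had R3 minus R2 differences between -0.33 (*Mpst*) and 0.46 (*Csf2rb2*). These genes were chosen by position after the values of *Ncf4* and *Rac2* had been seen.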
